A study of Mus musculus with 3 samples.

Results

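Macrophages that had met apoptotic cells and macrophages that had met lipopolysaccharide (LPS, a bacterial cell wall lipid) were compared directly, gene by gene, at the same time of 5 h. The material was primary mouse peritoneal macrophages grown in DMEM. There was 1 library with apoptotic cells, given at 5 per macrophage with the cells not taken up rinsed away before harvest, and 1 library with LPS at 100 ng/ml. An untreated library, for which the labels give no time, stands beside the values and enters only the filter on low values. All 3 libraries are labelled WT, and no strain, sex or age and no source of the apoptotic cells is given in the sources used here. Levels are FPKM, the fragments mapped to a transcript per kilobase of its length and per 1000000 mapped fragments in all. A gene was taken in when it was above 0 in both treated libraries and averaged 1 FPKM or more across the 3, which held for 4599 of 20574 gene symbols (22.4%).

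A macrophage recognises LPS through Toll-like receptor 4 and its partners, which switch on NF-kB and, through a second adaptor, interferon signalling. The uptake of dying cells, called efferocytosis, is known for the opposite outcome: bridging proteins and receptors draw the dying cell in, the lysosome digests it, and the macrophage must store, export or burn the lipid, amino acids and nucleotides it has gained. The macrophage is also known to release repair factors and few inflammatory cytokines in that state.

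With 1 library per condition no p-value is given, and every difference is one between 2 libraries. The steps between the smallest values imply a depth of 6.67 fragments per FPKM on a transcript of 2 kb for untreated cells, 6.45 for apoptotic cells and 6.35 for LPS. A counting standard error (SE) from that depth is given beside some ratios and covers counting error only. Of the 7147 genes that averaged 1 FPKM or more, 1193 were listed at exactly 0 with apoptotic cells alone, 1048 with LPS alone and 307 in both. Abundant genes were among them, for example Cst3 (listed at 0 with apoptotic cells and at 2138 FPKM with LPS), Rpl35 (0 and 1879 FPKM) and Rps21 (2034 and 0 FPKM), so a listed 0 may be a failed estimate and enters no ratio. At the edge of the filter, Trim23 (mean 1.00 FPKM) and Brpf3 were just inside, and Orm2 and B3gnt7 just outside.

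Differences are log2 ratios of FPKM + 1, apoptotic cells over LPS, so a positive value is a higher level with apoptotic cells and low genes are understated. Of the 4599 genes, 722 (15.7%) stood at least 2-fold higher with apoptotic cells and 255 (5.54%) at least 2-fold lower, 21.2% in either direction, and 3622 lay between. The counts in each gene list below are to be read against these shares of 15.7% higher and 5.54% lower. The median ratio was 0.32, and the 5th and 95th percentiles were -1.11 and 1.67. After the median was subtracted, 412 genes (8.96%) were higher and 419 (9.11%) lower, so the share of higher genes among those past 2-fold went from 73.9% to 49.6%. Median-of-ratios scaling gave 419 higher and 443 lower, and upper-quartile scaling 458 and 391. Scaling or centring of this kind brings the 2 sides towards balance by construction, so the excess of higher genes depends on how the libraries are scaled. Among the largest ratios the lower genes were the more numerous: past 8-fold there were 25 genes higher with apoptotic cells and 40 lower, and past 16-fold 5 and 19. Among the 4 groups of equal size by mean level, the share lower with apoptotic cells was 3.74% in the lowest and 8.17% in the highest. Of 963 genes past 2-fold that had a transcript length, 863 lay more than 2 counting SEs from 0.

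**Figure D1:**
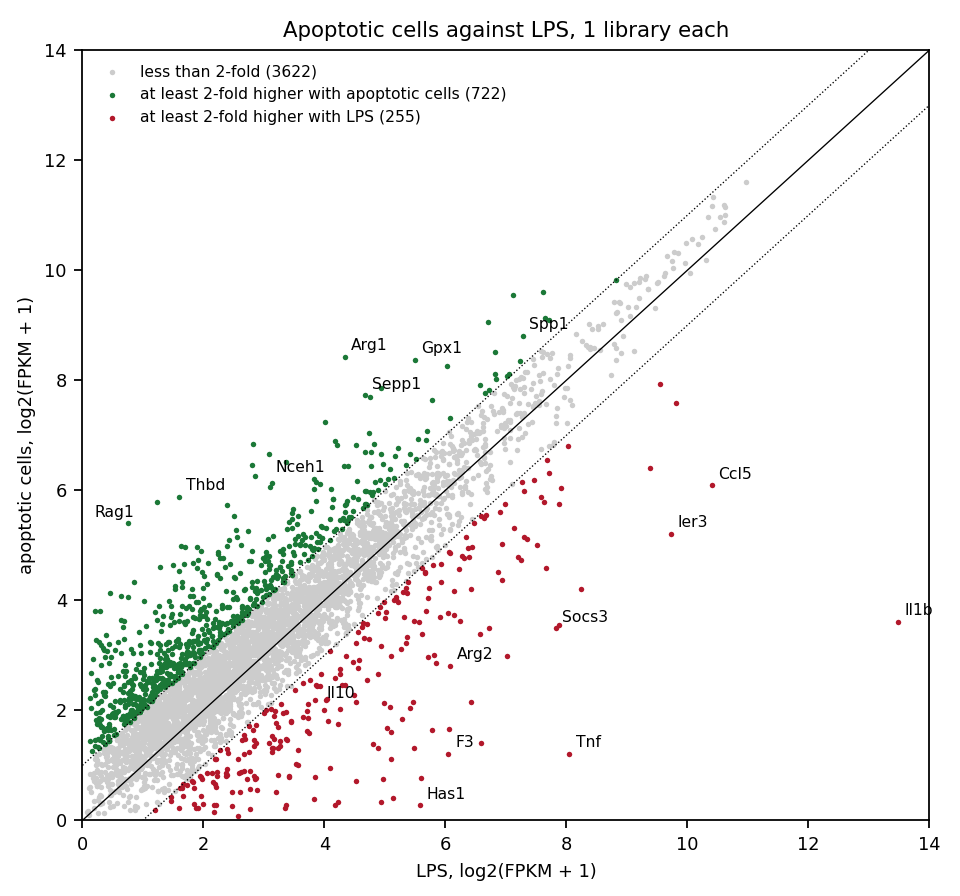
Level of each of the 4599 genes with LPS (horizontal axis) and with apoptotic cells (vertical axis), both as log2(FPKM + 1), 1 library each. The solid line is equality and the dotted lines are 2-fold. The 722 genes above the band form a broad cloud at low and middle levels, while the 255 genes below it include the points farthest from the line, with Il1b alone at the right edge.

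The 15 genes with the largest ratios towards LPS included cytokines, chemokines and feedback regulators of NF-kB. Il1b, which encodes the inflammatory cytokine interleukin 1 beta (chromosome 2, 129364569 to 129371164 in GRCm38.p6), was listed at 0 FPKM untreated, 11.2 with apoptotic cells and 11441 with LPS. It alone made up 5.71% of the summed FPKM of the LPS library, and its log2 ratio was -9.88 (counting SE 0.33), the largest of all. Tnf, the gene of tumour necrosis factor (chromosome 17, 35199367 to 35202007), stood at 54.6, 1.30 and 264 FPKM in the same order, a ratio of -6.85. The apoptotic-cell library was thus the lowest of the 3 for Tnf, below the untreated library as well as below LPS. The same order, with apoptotic cells lowest, LPS highest and the untreated library between them, held for 10 of the 15 genes with the largest ratios in this direction. These 10 were Tnf, Has1, Phlda1, Ch25h, Cxcl5, Ier3, Adora2b, Socs3, Niacr1 and Ccl5. In the other 5, Il1b, F3, Tnfsf9, Pde4b and Nfkbiz, the untreated value was a listed 0.

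Several of these genes act outside the classical cytokine set. Has1, which makes hyaluronan, stood at 2.38 FPKM untreated, 0.206 with apoptotic cells and 46.8 with LPS (-5.31). Ch25h, whose enzyme turns cholesterol into the signalling sterol 25-hydroxycholesterol, stood at 6.16, 0.713 and 47.5 FPKM (-4.82). Niacr1, the receptor for niacin and ketone body signals, stood at 21.9, 10.8 and 235 FPKM (-4.33). In all of them LPS was the high library. Pde4b, which breaks down cyclic AMP, was listed at 0, 3.42 and 85.0 FPKM (-4.28). The low values with apoptotic cells rest on few fragments, about 5.5 for Tnf, 1.7 for Has1 and 2.6 for Ch25h.

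The genes with the largest ratios towards apoptotic cells were a mixed set of surface, metabolic and regulatory genes. Tmem37, a membrane protein gene (chromosome 1, 120067377 to 120074069), stood at 1.25 FPKM untreated, 54.5 with apoptotic cells and 1.34 with LPS, a ratio of 4.57. Thbd, the gene of thrombomodulin, which turns thrombin into an anticoagulant (chromosome 2, 148404471 to 148408188), stood at 6.72, 58.1 and 2.03 FPKM (4.29). Arg1, the cytosolic arginase, which makes urea and ornithine from arginine (chromosome 10, 24915207 to 24927470), stood at 13.7, 344 and 19.1 FPKM (4.10, counting SE 0.27). For these 3 genes the apoptotic-cell library was far above both others. Xdh, which oxidises hypoxanthine and xanthine to uric acid, stood at 11.8, 87.3 and 5.95 FPKM (3.67). Nceh1, a cholesteryl ester hydrolase, stood at 15, 100.2 and 7.51 FPKM (3.57). For Thbd, Xdh and Nceh1 the LPS library was also below the untreated library. The G-protein regulator gene Rgs18 (3.68), the proton pump subunit gene Atp6v0d2 (3.48), the collagenase gene Mmp8 (3.46) and the lysoplasmalogenase gene Tmem86a (3.41) were also highest with apoptotic cells, as was Nt5e (3.34). Several LPS values here rest on few fragments, about 2.1 for Rgs18, 3.1 for Atp6v0d2, 3.8 for Mmp8 and 4.5 for Tmem37.

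Another 3 of the 15 are markers of T cells and thymocytes. Rag1, the recombinase gene of developing lymphocytes, had the largest positive ratio of all (4.65) and was listed at 0 FPKM untreated, 41.2 with apoptotic cells and 0.679 with LPS. Dntt, the polymerase that adds bases at antigen receptor joints, stood at 13.5, 13 and 0.160 FPKM (3.6), and Thy1, a T cell surface protein gene, at 15, 13 and 0.219 FPKM (3.52). For these last 2 genes the untreated and apoptotic-cell libraries were level and the LPS library was the low one. Tsc22d3, a glucocorticoid-induced gene, had the same form at 37.0, 30.9 and 2.08 FPKM (3.37). The LPS values rest on about 0.9 fragments for Dntt and 0.2 for Thy1, and the apoptotic-cell value of Thy1 on about 13.5 (counting SE 0.66). The summed level of 19 T cell and thymocyte markers was 63.5 FPKM untreated, 127 with apoptotic cells and 4.80 with LPS, with 11, 2 and 9 of them listed at 0. The part of such cells, or of RNA from apoptotic cells still attached or engulfed, in the differences between the 2 libraries was not tested. In bulk RNA a different number of cells of a type and a different amount of RNA per cell cannot be told apart.

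**Figure D2:**
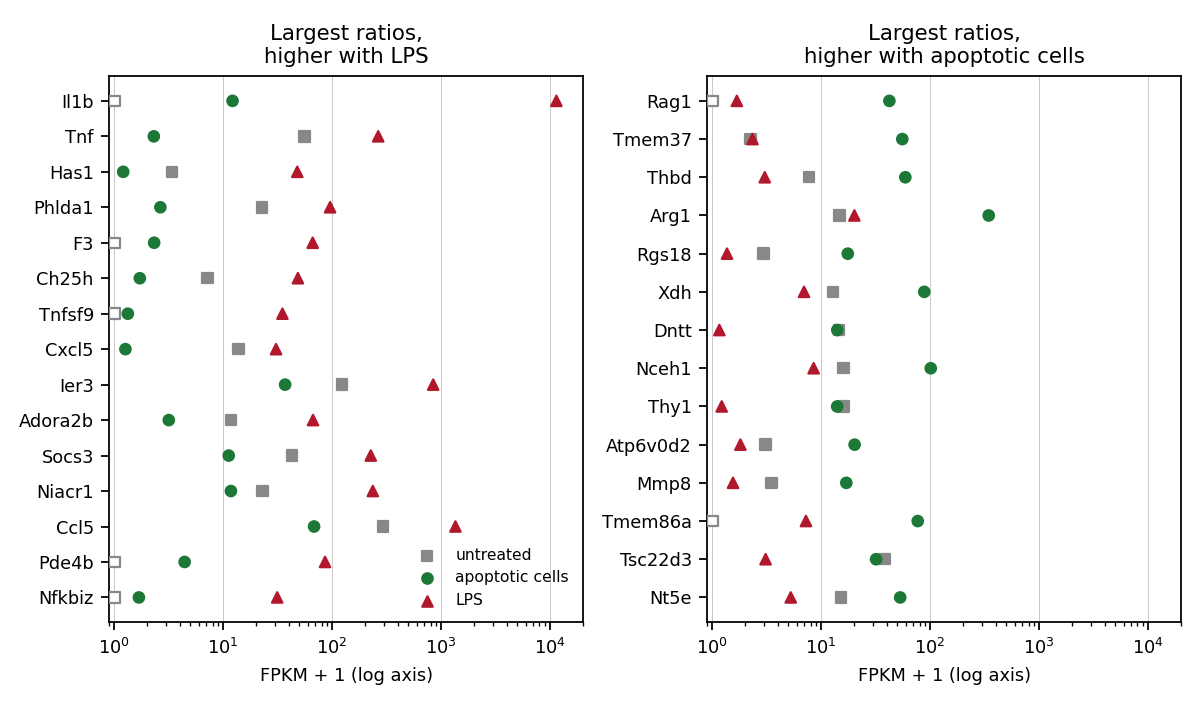
Genes among the 15 with the largest log2 ratio in each direction (15 on the left, 14 on the right), with FPKM + 1 on a log axis for the untreated (grey square), apoptotic-cell (green circle) and LPS (red triangle) library; hollow squares on the left edge are untreated values listed at 0. On the left the green circles lie below the grey squares wherever the untreated value is above 0, and on the right the red triangles lie below the grey squares for most genes.

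Inflammatory cytokine genes had the lowest median of the 36 pathway lists that were described. Of 7 members, 5 stood at least 2-fold lower in the apoptotic-cell library, 0 higher, and the median ratio was -3.89, against 0.32 over all genes. Beside Il1b and Tnf these were Tnfsf9 (4-1BB ligand), listed at 0, 0.330 and 33.9 FPKM, Il23a, a subunit of interleukin 23, at 1.23, 0.263 and 17.8 FPKM, and Il10. Il10 encodes the main anti-inflammatory cytokine of macrophages, yet it stood with the inflammatory genes in this comparison. It was listed at 0 untreated, 5.01 with apoptotic cells and 17.1 FPKM with LPS (-1.59, counting SE 0.34). Il18 (-0.21) and the growth factor gene Csf1 (0.13) differed by less than 2-fold. Other cytokine genes had a listed 0 and so no ratio: with apoptotic cells and with LPS respectively, Il1a was listed at 14.2 and 0 FPKM, Il6 at 0.648 and 0, Csf2 at 0 and 92.6, and Tgfb1 at 0 and 364.

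Chemokine genes, which encode attractants for other leukocytes, went both ways, with 4 of 8 members at least 2-fold lower, 2 higher and a median of -1.76. The lower ones attract neutrophils, monocytes and T cells. Cxcl5 stood at 12.9 FPKM untreated, 0.264 with apoptotic cells and 29.5 with LPS (-4.59), and Ccl5 at 292, 67.2 and 1353 FPKM (-4.31). Ccl7 stood at 41.3, 6.88 and 129 FPKM (-4.04), and Ccl22 at 20.7, 3.11 and 41.8 FPKM (-3.38). All 4 were lowest with apoptotic cells. The higher ones were Cxcl13, the B cell attractant that large peritoneal macrophages make, at 44.7, 364 and 112 FPKM (1.69), and Cxcl14, at 1.90, 20.9 and 3.67 FPKM (2.23). The platelet factor gene Pf4 was level between the treatments at 635 and 702 FPKM, each above the untreated 106 FPKM. The list's median depends on the genes at 0: when each listed 0 was used as a value it was 0.067.

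In the list of NF-kB subunits, feedback regulators and related genes, 7 of 9 members with a ratio were lower with apoptotic cells. In the same list 0 were higher, and the median was -2.22. Socs3, which dampens cytokine receptor signalling, stood at 42.0 FPKM untreated, 10.2 with apoptotic cells and 225 with LPS (-4.33). Nfkbiz, a nuclear co-activator of late inflammatory genes, was listed at 0, 0.681 and 30.3 FPKM (-4.22). The adhesion gene Icam1 (-2.99), Tnfaip2 (-2.52), Irak3 (-2.22), Bcl3 (-1.96) and Tnip3 (-1.86) were the other 5. The subunit gene Rela was not among the 7, being just short of 2-fold at 26.8 against 53.8 FPKM (-0.98). Nfkbia, the inhibitor that NF-kB itself induces, was listed at 85.8, 23.8 and 0 FPKM. The listed 0s ran the other way, with 7 genes at 0 with LPS alone and 4 with apoptotic cells alone. Sod2 (46.8 FPKM with apoptotic cells) and the subunit gene Rel (5.53 FPKM) were among the former, Nfkbie (32.2 FPKM with LPS) among the latter.

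Among the sensing genes upstream of NF-kB, most of those with a ratio differed by less than 2-fold. Of 9 genes for Toll-like receptors, their partners and related sensors 1 was lower, the peptidoglycan sensor gene Nod2 (0.151 against 5.79 FPKM, -2.56). The endosomal receptor gene Tlr13 was the 1 higher (112 against 17.4 FPKM, 2.62), and the median was -0.20. Another 7 genes of the list were listed at 0 with LPS alone, among them Cd14 (555 FPKM with apoptotic cells) and Myd88 (28.8 FPKM), and 1 with apoptotic cells alone. The co-receptor gene Ly96, also called MD-2, stood at 59.5 with apoptotic cells and 65.2 FPKM with LPS.

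Immediate-early genes and dual-specificity phosphatase genes, which are switched on within minutes of many stimuli, had 5 of 22 members lower by at least 2-fold with apoptotic cells, 2 higher and a median of -0.30. The lower ones were Phlda1 (-5.18), Ier3 (-4.52), Nr4a3 (-2.68), Fosl2 (-2.29) and Junb (-1.84). Phlda1 stood at 21.7 FPKM untreated, 1.65 with apoptotic cells and 94.7 with LPS. The higher ones were Fos, at 4.21, 15.5 and 2.99 FPKM (2.05, counting SE 0.53), and Klf2, a restrainer of macrophage activation, at 39.4, 25.2 and 5.87 FPKM (1.93). The members of the AP-1 transcription factor thus stood on opposite sides, Junb and Fosl2 with LPS and Fos with apoptotic cells, while Jun (0.74) and Jund (-0.10) lay between. After the median of all genes was subtracted, 9 of the 22 were lower and the same 2 higher.

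**Figure D3:**
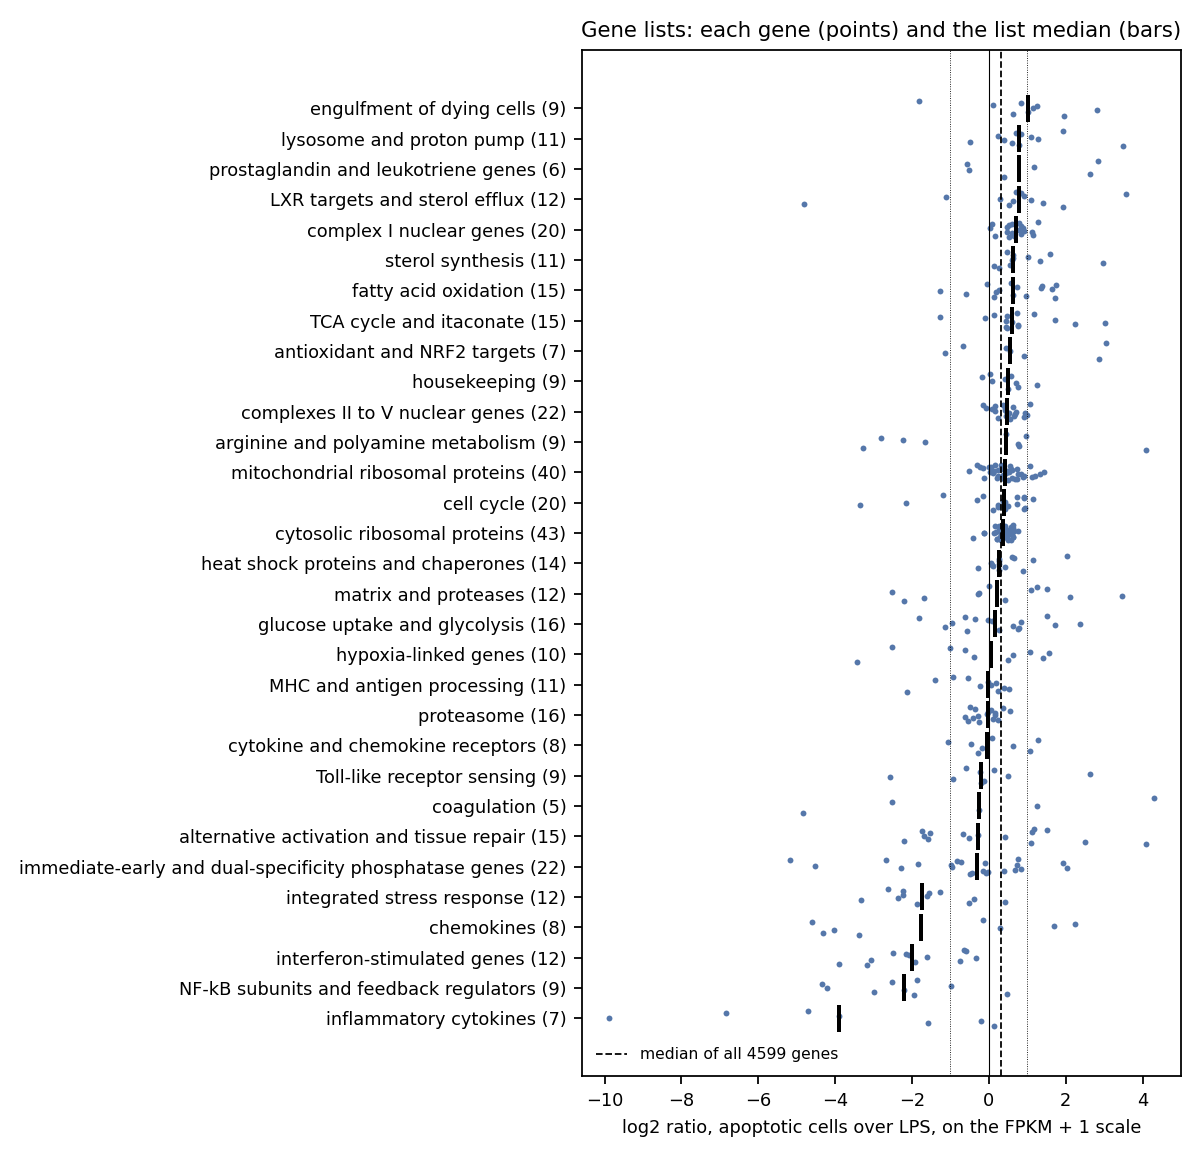
Log2 ratio, apoptotic cells over LPS, of each member (point) of the pathway gene lists with at least 5 members (cell type markers are not drawn), with the list median (black bar), number of members in brackets, and the median of all 4599 genes (dashed line, 0.32). The medians of 5 lists, from inflammatory cytokines to the integrated stress response, lie more than 1 below 0, and the engulfment list lies highest of these pathway lists with 1.01.

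Interferon-stimulated genes with a ratio were lower with apoptotic cells in 8 of 12 members, with 0 higher and a median of -2.0. The guanylate binding protein gene Gbp5 stood at 5.11 FPKM untreated, 0.213 with apoptotic cells and 17.1 with LPS (-3.90), and Gbp2 at 14.5, 9.52 and 93.7 FPKM (-3.17). Ifit1, which blocks the translation of viral RNA, stood at 1.33, 0.726 and 13.4 FPKM (-3.06), and Rsad2, the antiviral enzyme viperin, at 1.70, 1.03 and 10.5 FPKM (-2.50). LPS was the high library in each of these 4 genes, and the apoptotic-cell library was the lowest. Parp14 (-2.15), Oas3 (-2.08), Gbp7 (-1.92) and Oas1a (-1.60) were the others past 2-fold. The 4 that were not were Ifi35 (-0.75), Usp18 (-0.65), which encodes the protease that removes ISG15 and restrains the interferon receptor, and the genes of the signalling complex itself, Stat2 (-0.59) and Irf9 (-0.34). The listed 0s ran the other way, with 12 genes at 0 with LPS alone and 6 with apoptotic cells alone. Among the former were Bst2, listed at 17.2, 37.9 and 0 FPKM, Irf7, at 7.83, 19.4 and 0, and Isg15, a ubiquitin-like protein gene, at 34.7, 9.73 and 0. Among the latter was Igtp, at 0, 0 and 10.9 FPKM. Outside this list, Cxcl10, a chemokine also induced by interferon, was listed at 2.53, 0 and 24.7 FPKM.

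The promoters of the interferon-stimulated members with a ratio are shown because these stood on 1 side and are known to share an element. The interferon-stimulated response element (ISRE), the binding site of the STAT and IRF factor complex, was searched as GAAA, NN and GAAA in a row, on both strands, in the 250 bases before each annotated start in RefSeq (GRCm38.p6). Promoters were found for 10 of the 12 members. Of their 11 promoters 8 held a match (72.7%), against 2.98% of 32851 promoters of all genes, 2.82% of the promoters of compared genes, 6.38% of those lower and 3.73% of those higher with apoptotic cells. The list was made of known interferon targets, so the 72.7% describes the list and is not a test of the comparison. List genes that were lower are also counted in the 6.38%, so that share is not separate from the list. Each window below has 60 bases, reads 5′ to 3′ in the direction of its gene, and has the match in capitals.
Gbp2 (chr3:142620579-142620638, plus strand): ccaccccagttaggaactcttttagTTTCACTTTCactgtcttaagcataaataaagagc
Gbp5 (chr3:142496744-142496803, plus strand): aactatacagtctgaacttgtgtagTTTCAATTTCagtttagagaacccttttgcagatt
Gbp7 (chr3:142530258-142530317, plus strand): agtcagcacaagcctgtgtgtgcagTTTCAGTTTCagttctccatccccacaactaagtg
Ifit1 (chr19:34640760-34640819, plus strand): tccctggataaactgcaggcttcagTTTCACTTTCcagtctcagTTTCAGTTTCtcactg
Oas1a (chr5:120907526-120907585, minus strand): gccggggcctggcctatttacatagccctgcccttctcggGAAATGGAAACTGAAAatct
Oas3 (chr5:120777700-120777759, minus strand): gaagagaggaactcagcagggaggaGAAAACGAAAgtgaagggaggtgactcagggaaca
Rsad2 (chr12:26456538-26456597, minus strand): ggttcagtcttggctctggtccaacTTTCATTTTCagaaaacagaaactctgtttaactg
Stat2 (chr10:128270251-128270310, plus strand): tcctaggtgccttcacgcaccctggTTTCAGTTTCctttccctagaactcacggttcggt

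The matches lay at different distances from the start, from 20 bases before it in Oas1a to 222 bases before it in Stat2. Ifit1, with a ratio of -3.06, held 2 separate copies in its window, and Oas1a, with a ratio of -1.60, held 2 overlapping ones. Stat2 held a match and differed by less than 2-fold (-0.59), while the other 7 genes with a match were past 2-fold. Ifi35 (-0.75) and Irf9 (-0.34), whose promoters held none, were not past 2-fold. No promoter was found for Parp14 (-2.15) or Usp18 (-0.65). With so few genes, all picked as interferon targets, whether a match goes with the ratio was not tested.

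The cyclic AMP response element (CRE), TGACGTCA, lay in the promoters of 2 of the genes with the largest ratios towards LPS, Has1 and Ch25h. It was found in 1.55% of all promoters, 2.87% of those of the compared genes, 2.55% of those lower with apoptotic cells (6 of 235) and 0.486% of those higher (3 of 617). The windows have 60 bases in the direction of the gene, with the element in capitals. The Has1 window lies inside the gene interval (chromosome 17, 17833691 to 17855589), before an annotated start other than the outermost one.
Has1 (chr17:17855238-17855297, minus strand): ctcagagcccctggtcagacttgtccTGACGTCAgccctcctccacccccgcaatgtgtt
Ch25h (chr19:34475176-34475235, minus strand): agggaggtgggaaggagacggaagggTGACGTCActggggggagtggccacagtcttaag

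The promoters of Il1b and Tnf, which had the largest ratios of all, each held a TATA box (TATAAA, in capitals) at 31 and 29 bases before the start. That motif was found in 12.4% of all promoters, 6.45% of those of the compared genes, 9.36% of those lower and 6.32% of those higher with apoptotic cells. A strict form of the NF-kB site, GGGA, N and TTTCC in a row, was in 1 of the 235 promoters of lower genes and in 0.356% of all promoters. Both 250-base windows read in the direction of the gene. The annotated start used for Il1b lies inside the gene interval given above, so its window overlaps that interval.
Il1b (chr2:129371140-129371389, minus strand): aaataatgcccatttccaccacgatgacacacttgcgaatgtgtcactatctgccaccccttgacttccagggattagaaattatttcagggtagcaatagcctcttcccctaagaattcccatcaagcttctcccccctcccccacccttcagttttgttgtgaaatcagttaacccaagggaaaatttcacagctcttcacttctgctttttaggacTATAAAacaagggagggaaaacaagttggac
Tnf (chr17:35202008-35202257, minus strand): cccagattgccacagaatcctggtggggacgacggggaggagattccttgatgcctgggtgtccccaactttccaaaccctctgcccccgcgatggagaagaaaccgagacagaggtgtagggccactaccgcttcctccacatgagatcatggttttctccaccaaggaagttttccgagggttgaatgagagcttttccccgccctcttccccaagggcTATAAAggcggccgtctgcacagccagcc

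The integrated stress response, in which amino acid shortage or misfolded protein raises the factor ATF4 and its targets, was lower with apoptotic cells in 9 of 12 members, with 0 higher and a median of -1.74. Atf4 itself stood at 245 FPKM untreated, 64.8 with apoptotic cells and 240.0 with LPS (-1.87, counting SE 0.09). Here the LPS library was level with the untreated library and the apoptotic-cell library was the low one. The apoptotic-cell library was also the low one, and LPS at or above the untreated level, in the targets Ppp1r15a, at 44.0, 9.49 and 48.0 FPKM (-2.22), Mthfd2, at 91.9, 21.9 and 116 FPKM (-2.35), Trib3, at 52.6, 11.4 and 74.6 FPKM (-2.61), and Chac1, a glutathione-degrading enzyme, at 30.4, 3.45 and 43.2 FPKM (-3.31). The serine synthesis genes Phgdh (-1.60) and Psat1 (-1.55), the serine hydroxymethyltransferase gene Shmt2 (-1.27) and Slc3a2 (-2.22) made up the 9. Slc3a2, a chain of amino acid transporters, had another form, at 207, 191 and 896 FPKM, with LPS alone high. Atf5 (-0.53), Ddit4 (-0.40) and Cebpg (0.42) differed by less than 2-fold.

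Arginine metabolism was divided between its isoforms. Arg1, the cytosolic arginase, stood 4.10 higher on the log2 scale with apoptotic cells, as given above. Arg2, the mitochondrial arginase (chromosome 12, 79130788 to 79156301), stood at 6.94 FPKM untreated, 5.99 with apoptotic cells and 66.8 with LPS (-3.28, counting SE 0.27). Each arginase was therefore high in 1 treated library and near its untreated level in the other. The arginine importer gene Slc7a1 stood at 43.7, 7.02 and 55.3 FPKM (-2.81), and Odc1, which turns ornithine into the polyamine putrescine, at 75.7, 22.7 and 73.6 FPKM (-1.65). With Slc3a2 these made 4 of 9 members lower and 1 higher, around a median of 0.45. The other arginine importer of the list, Slc7a2, was listed at 0, 37.6 and 0 FPKM. The inducible nitric oxide synthase gene Nos2, which competes for arginine, was listed at 0.442, 0 and 1.76 FPKM.

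The coagulation list had members on both sides, with 2 of 5 higher and 2 lower. The anticoagulant genes Thbd (4.29) and Pros1, protein S, which also bridges dying cells to phagocytes (5.14, 35.1 and 14 FPKM, 1.26), were higher with apoptotic cells. F3, tissue factor, which starts clotting, was listed at 0, 1.32 and 65.3 FPKM (-4.84), and was among the lower ones. The list of purine breakdown and receptor genes had 3 members with a ratio, 2 higher and 1 lower. Nt5e, the ecto-enzyme CD73 that makes adenosine outside the cell, stood at 14.2, 52.1 and 4.25 FPKM (3.34), the adenosine-degrading Ada at 1.92, 3.90 and 1.04 FPKM (1.27, counting SE 0.56), and the adenosine receptor gene Adora2b at 10.8, 2.16 and 65.7 FPKM (-4.40). The other genes of that list had a listed 0 or a low mean and so no ratio, and they lay on either side: the receptor gene Adora3 stood at 1.96 with apoptotic cells against 0.365 FPKM with LPS and Adora2a was listed at 5.64 and 0, while the enzyme genes Entpd1 and Pnp were listed at 0 with apoptotic cells and at 4.80 and 55.5 FPKM with LPS. With the median of all genes taken off, Pros1 and Ada were no longer past 2-fold, while Thbd, F3, Nt5e and Adora2b were.

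**Figure D4:**
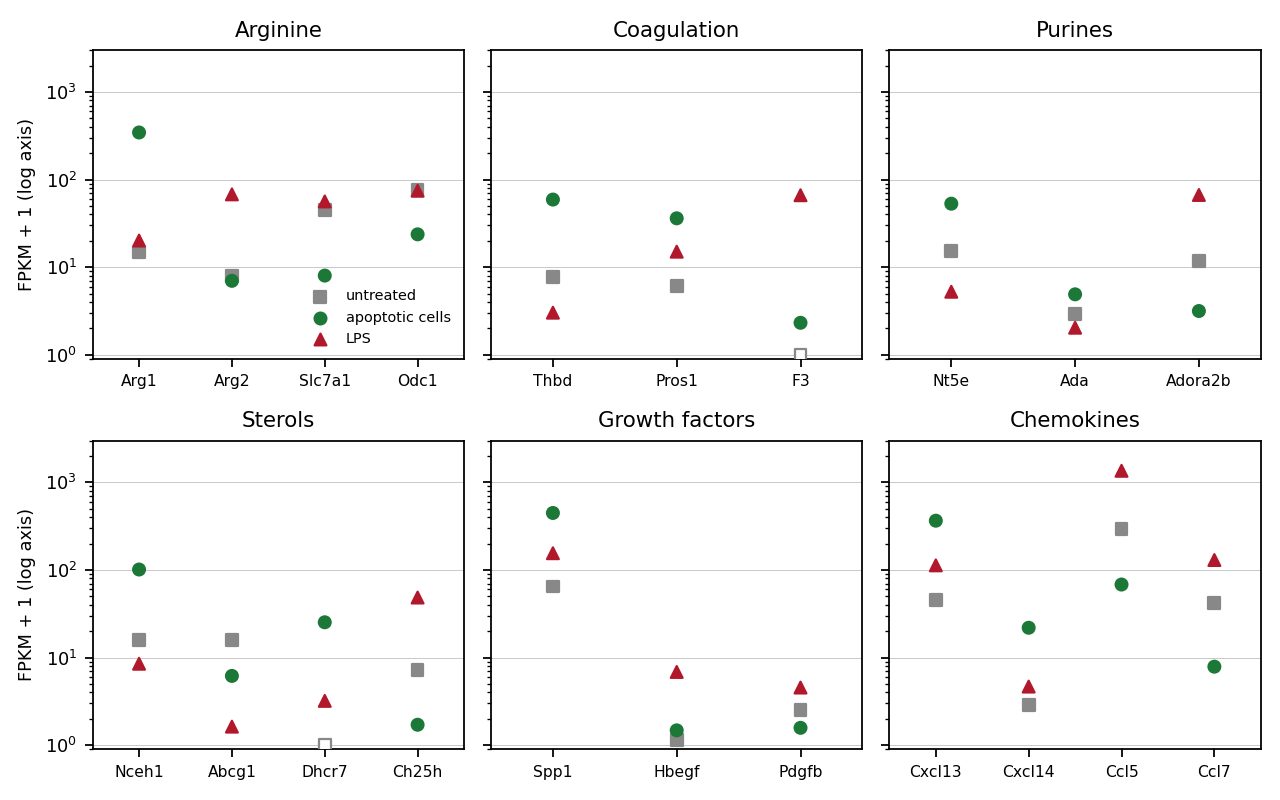
FPKM + 1 on a log axis in the untreated (grey square), apoptotic-cell (green circle) and LPS (red triangle) library for members of 6 gene groups that stood on opposite sides; hollow squares are values listed at 0. In each panel the leftmost gene has the green circle above the red triangle and the rightmost has it below, as with Arg1 and Odc1 or Thbd and F3. Examples were chosen after their values were seen.

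Genes of alternative activation and tissue repair did not stand on 1 side: 6 of 15 stood higher with apoptotic cells by 2-fold or more and 5 lower, around a median of -0.29. Higher beside Arg1 were Clec10a, a galactose-binding lectin, at 1.67 FPKM untreated, 9.78 with apoptotic cells and 0.905 with LPS (2.5, counting SE 0.77), and Spp1, osteopontin, at 63.6, 446 and 154 FPKM (1.53). Stat6, the factor downstream of interleukin 4 (1.17), Retnla (54.5, 217 and 99.9 FPKM, 1.11) and the chitinase-like gene Chi3l3 (1.08, counting SE 0.67) were the rest. Lower were the growth factor genes Hbegf, at 0.149, 0.479 and 5.86 FPKM (-2.21), and Pdgfb (-1.53), with Socs2 (-1.73), the collagenase gene Mmp13 (58.1 against 189.6 FPKM, -1.69) and Il10. Single genes such as Clec10a and Arg1 thus stood higher with apoptotic cells, while Hbegf and Pdgfb stood higher with LPS. After the median of all genes was subtracted, the 6 higher genes became 3, Arg1, Clec10a and Spp1, and the 5 lower genes were still past 2-fold. Areg, another growth factor gene of that family, was listed at 0 with apoptotic cells and at 79.1 FPKM with LPS.

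Engulfment genes with a ratio were mostly higher with apoptotic cells, with 5 of 9 members at least 2-fold higher, 1 lower and a median of 1.01. Itgb5, an integrin chain that binds the bridging protein MFG-E8, stood at 3.30 FPKM untreated, 25.7 with apoptotic cells and 2.77 with LPS (2.82, counting SE 0.63). Anxa1, a pro-resolving annexin, stood at 9.64, 54.8 and 13.5 FPKM (1.94). Mfge8, the bridging protein itself, stood at 7.70, 48.1 and 21.1 FPKM (1.15), so that both treatments were above the untreated level and apoptotic cells more so. Pros1 (1.26) and the cytoskeletal adaptor gene Elmo1 (14 against 6.42 FPKM, 1.0) were the others. After the median of all genes was subtracted, 2 of the 5, Itgb5 and Anxa1, were still past 2-fold. The lower member was the glucose transporter gene Slc2a1, at 48.0, 38.6 and 139 FPKM (-1.83). In this list 6 genes were listed at 0 with apoptotic cells alone and 4 with LPS alone. Anxa5 (318 FPKM with LPS) and the receptor genes Axl (30.3 FPKM) and Timd4 (7.74 FPKM) were among the former, P2ry6 (15.9 FPKM with apoptotic cells) among the latter. Fc receptor genes, whose products bind antibodies, were higher in 3 of 4 members. Fcgr4 stood at 19.1 with apoptotic cells against 2.13 FPKM with LPS (2.68), Fcgr1 at 3.29 against 0.377 (1.64) and Fcgrt at 33.4 against 11.4 (1.47). Of 4 complement genes 1 was higher, C1qa, which tags dying cells, at 59.4, 544 and 209 FPKM untreated, with apoptotic cells and with LPS (1.37).

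The cargo of an engulfed cell includes cholesterol and its esters. Among sterol genes with a ratio more were higher than lower with apoptotic cells, while the listed 0s ran the other way. A link to the cargo was not tested. In the list of liver X receptor (LXR) targets and sterol efflux genes, 4 of 12 members (33.3%, against 15.7% of all genes) were higher, 2 lower, and the median was 0.77. Higher were Nceh1 (3.57), the sterol exporter gene Abcg1, at 14.9 FPKM untreated, 5.18 with apoptotic cells and 0.630 with LPS (1.92, counting SE 0.54), Elovl5 (1.41) and the lysosomal acid lipase gene Lipa, at 114, 323 and 150.0 FPKM (1.10, counting SE 0.06). For Abcg1 the untreated library was the highest of the 3. Lower were Ch25h (-4.82) and the lipoprotein lipase gene Lpl (12.7 against 28.6 FPKM, -1.12). Lipa was no longer past 2-fold after the median of all genes was subtracted (0.79). Sterol synthesis genes were higher in 4 of 11 members (36.4%), with 0 lower and a median of 0.63. Dhcr7, the last enzyme of the pathway, was listed at 0, 24.3 and 2.21 FPKM (2.98), Sqle at 0, 33.7 and 10.4 FPKM (1.60), Ebp at 14.4, 27.4 and 10.3 FPKM (1.33) and Nsdhl at 4.97, 9.84 and 4.36 FPKM (1.01). After the median of all genes was subtracted, Dhcr7, Sqle and Ebp were still past 2-fold. In the sterol synthesis list 5 genes were listed at 0 with apoptotic cells alone and 2 with LPS alone, and in the LXR list 4 and 1. Insig1 (128 FPKM with LPS) and Soat1 (65.7 FPKM) were among the former, Sc4mol (118 FPKM with apoptotic cells) and Rxra (61.9 FPKM) among the latter. Lysosome and proton pump genes were higher in 4 of 11 members (36.4%), with 0 lower and a median of 0.79. Among the 4 were Atp6v0d2 at 2.08, 19.2 and 0.811 FPKM (3.48), the lysosomal master regulator gene Tfeb (1.92, counting SE 0.81), and Lipa. With the median of all genes taken off, 2 of the 4, Atp6v0d2 and Tfeb, remained past 2-fold.

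Fatty acid oxidation and the mitochondrial chain, which the series title ties to efferocytosis, had medians above that of all genes, but their shares past 2-fold differed. Of 15 fatty acid oxidation genes 5 (33.3%, against 15.7% of all genes) stood higher by at least 2-fold, 1 was lower, and the median was 0.63, or 0.31 above that of all genes. The 5 were enzymes of the oxidation spiral and its electron acceptor. Hadh was listed at 0 FPKM untreated, 12.1 with apoptotic cells and 2.93 with LPS (1.74), Acaa2 stood at 6.60, 8.80 and 1.98 FPKM (1.72), and Decr1 at 3.05, 7.76 and 1.8 FPKM (1.64, counting SE 0.69). Etfb stood at 30.6, 51.8 and 19.2 FPKM (1.39), and Echs1 at 31.1, 133 and 51.1 FPKM (1.37, counting SE 0.08). In Echs1 alone of the 4 with an untreated value were both treatments above it; in the other 3 the LPS library was below it. The lower gene was the fatty acid activating enzyme gene Acsl5 (47.9 against 118 FPKM, -1.28). The carnitine shuttle gene Cpt2 was nearly level, at 5.13, 5.94 and 4.81 FPKM (0.26), and Cpt1a was listed at 9.78, 0 and 4.63 FPKM.

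Of 20 nuclear genes of complex I, 3 (15%, near the 15.7% of all genes) were at least 2-fold higher, Ndufv3 (47.8 against 19.2 FPKM, 1.27), Ndufa13 (42.9 against 18.9 FPKM) and Ndufb11 (1.12), and 0 were lower, with a median of 0.71. All 20 ratios were above 0, the smallest being 0.03 for Ndufc1, but after the median of all genes was subtracted none was past 2-fold. The genes of complexes II to V had a median of 0.48, with 1 of 22 (4.55%, below the share of all genes) higher, Uqcrh (277 against 131 FPKM, 1.08, and 0.76 after the median was subtracted). In the tricarboxylic acid cycle 4 of 15 genes (26.7%, against 15.7% of all genes) were higher, 1 lower, and the median was 0.61. The isocitrate dehydrogenases stood out in it. Idh2, the mitochondrial enzyme that makes NADPH, was listed at 0, 45.0 and 4.67 FPKM (3.02), and Idh1, its cytosolic counterpart, stood at 38.1, 307 and 63.9 FPKM (2.24, counting SE 0.15). The subunit genes of the NAD-dependent enzyme, Idh3a (0.61) and Idh3b (0.44), differed by less than 2-fold. Mdh1 (1.72) and Suclg1 (1.18, or 0.86 after the median was subtracted) were the other higher genes, and pyruvate carboxylase, Pcx (-1.28, counting SE 0.89), the lower. Irg1, which diverts the cycle to itaconate, was listed at 0, 13.1 and 0 FPKM.

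Of 16 glycolysis genes 3 (18.8%, against 15.7% of all genes) were higher with apoptotic cells and 2 lower, around a median of 0.17. The lower ones were the transporter gene Slc2a1 (-1.83) and the hexokinase gene Hk2, at 10.8 against 25 FPKM (-1.14). Higher with apoptotic cells were Pfkl, the liver form of phosphofructokinase, at 73.1 against 13.3 FPKM (2.38), Pdk1, which holds pyruvate back from the mitochondrion (5.01 against 0.834 FPKM, 1.71), and Tpi1 (1.51). The platelet form of phosphofructokinase, Pfkp, went the other way (9.61 against 19.5 FPKM, -0.95). Of the NAD supply and sirtuin genes, Sirt1 stood at 11 against 8.31 FPKM (0.37), and Nampt, the rate-limiting enzyme of NAD salvage, was listed at 0, 29.8 and 0 FPKM.

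In the list of 7 antioxidant and NRF2 target genes, 2 stood higher with apoptotic cells, and both encode selenoproteins. Gpx1, glutathione peroxidase, stood at 125 FPKM untreated, 329 with apoptotic cells and 44.1 with LPS (2.87, counting SE 0.17), and Sepp1, the selenium carrier selenoprotein P, at 22.6, 210.3 and 24.6 FPKM (3.05). Gpx4, another selenoprotein, which repairs lipid peroxides, was not past 2-fold at 365 against 194 FPKM (0.90), and the NRF2 target gene Nqo1 at 8.92 against 14.9 FPKM (-0.68). The lower one was Gss, a glutathione synthesis enzyme (-1.14). Prostaglandin genes had 3 of 6 higher, the constitutive cyclooxygenase gene Ptgs1 at 4.82, 24.5 and 2.56 FPKM (2.84, counting SE 0.59), the leukotriene synthase gene Ltc4s (2.63) and Ptger4 (1.17, or 0.85 after the median was subtracted), and 0 lower. The inducible cyclooxygenase gene Ptgs2 was listed at 218, 3.67 and 0 FPKM and so has no ratio.

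Matrix and protease genes stood on both sides, with 5 of 12 higher with apoptotic cells, 3 lower and a median of 0.21. Higher were the metalloproteinase genes Mmp8, at 2.48 FPKM untreated, 16 with apoptotic cells and 0.548 with LPS, and Mmp19, at 8.31, 13.8 and 2.40 FPKM (2.12), with Spp1, Tgfbi (1.26) and Sparc (1.08). The last 2 were no longer past 2-fold after the median of all genes was subtracted (0.95 and 0.77), which left 3 higher. Among the lower were the collagen-crosslinking enzyme gene Lox, at 1.86, 0.205 and 4.55 FPKM (-2.20), and Mmp13. The metalloproteinases were thus divided, the neutrophil collagenase gene Mmp8 standing with apoptotic cells and the collagenase gene Mmp13 with LPS. Among 8 cytokine and chemokine receptor genes, the transforming growth factor receptor gene Tgfbr2 stood at 159, 39.0 and 15.3 FPKM (1.29) and the interferon gamma receptor gene Ifngr1 at 35.8, 43.2 and 20 FPKM (1.07). The interleukin 17 receptor gene Il17ra was the lower one (11 against 24 FPKM, -1.06). Neither Tgfbr2 nor Ifngr1 was past 2-fold after the median of all genes was subtracted. Of 3 genes for regulators of G-protein signalling, which shorten signals from chemokine receptors, 2 were higher, Rgs18 and Rgs2, the latter at 26.3, 21.9 and 2.94 FPKM (2.54). Of 14 heat shock and chaperone genes 2 (14.3%, near the 15.7% of all genes) were higher and 0 lower. The 2 were Sdf2l1 of the endoplasmic reticulum, at 13.5, 85.5 and 20 FPKM (2.04), and Hspb1 (4.87 against 1.66 FPKM, 0.83 after the median was subtracted).

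None of 43 cytosolic ribosomal protein genes (median 0.38) and none of 16 proteasome genes (median -0.03) was past 2-fold in these libraries. Of 40 mitochondrial ribosomal protein genes 5 (12.5%, below the 15.7% of all genes) were higher and 0 lower (median 0.41), and 2 were higher once the median of all genes was taken off. Antigen presentation genes had 0 higher and 2 lower of 11, the activation marker gene Cd83 (8.30 against 39.9 FPKM, -2.14) and the proteasome activator gene Psme2 (-1.41), while the class II gene H2-Ab1 was level at 307 against 260.5 FPKM. Among 10 hypoxia-linked genes 3 were higher (2 after the median was subtracted) and 3 lower, the lowest being the peptide hormone gene Adm, at 64.3, 2.58 and 37.8 FPKM (-3.44). Of 20 cell cycle genes 1 was higher and 3 lower, and after the median was subtracted 0 and 3, with Ccnd2 at 2.19 against 31.8 FPKM (-3.37) and the cell cycle inhibitor gene Cdkn1a at 34.5 against 156 FPKM (-2.14). Housekeeping genes had a median of 0.51, with Actb at 1435 against 1011 FPKM and Gapdh at 862 against 508 FPKM.

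Markers of other cell types differed between the 2 libraries too. T cell and thymocyte markers were all on the apoptotic-cell side among those with a ratio: 7 of 7 were at least 2-fold higher, with a median of 2.80, and 6 of 7 after the median of all genes was subtracted. Another 9 of the 19 markers, the receptor chain genes Cd3d, Cd3e and Cd3g among them, were above 0 with apoptotic cells and listed at 0 with LPS, and 2, Lck and Tcf7, were the reverse. A listed 0 may be a failed estimate, so it is not read as absence. The markers with a ratio were lower with LPS in all 7 cases. Zap70, also above 0 in both libraries but below the filter, stood at 1.59 with apoptotic cells and 0.181 FPKM with LPS.

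The macrophage markers were also higher with apoptotic cells in 3 of 3 members, among them the lectin gene Lgals3, listed at 0, 744 and 137 FPKM (2.43), and Fcgr1 (1.64). Defining genes were listed at 0 in 1 library: Csf1r, the receptor for the growth factor that macrophages depend on, at 56.3, 185 and 0 FPKM, and Cd14, the LPS co-receptor, at 303, 555 and 0 FPKM. The summed level of the 9 macrophage markers was 1077, 1604 and 144 FPKM, with 1, 2 and 5 of them at 0. Of 12 large peritoneal macrophage markers only Cd9 (912 against 630.5 FPKM) and Cxcl13 (364 against 112 FPKM) had a ratio, and these were abundant in both treated libraries. Of the others 4 were listed at 0 with apoptotic cells alone, 2 with LPS alone and 4 in both. Gata6, the factor that defines these cells, was listed at 0, 0 and 8.81 FPKM, and Vsig4 at 8.04, 0 and 11.6 FPKM. Naip1 was listed at 1.34, 9.20 and 0 FPKM, and Lyz1 at 349, 0 and 0 FPKM. The 12 B cell markers summed to 863 FPKM untreated and to 214 and 195 FPKM with apoptotic cells and LPS, with 8, 2 and 2 of them at 0. Most of the untreated sum came from Ly6d (563 FPKM) and Cxcr5 (214 FPKM). Cd79b and Ms4a1 were listed at 0 untreated and above 0 in both treated libraries, so the sums do not show a fall from untreated. Of 8 B cell markers with a ratio 2 were at least 2-fold higher with apoptotic cells, Cd79b (85.6 against 19.1 FPKM, 2.11) and Blnk (1.02), the latter not after the median of all genes was subtracted. Neutrophil markers summed to 119, 325 and 496 FPKM, with 4, 3 and 7 of 11 at 0. Mast cell and eosinophil markers summed to 106, 20.8 and 11 FPKM, with 5, 6 and 5 of 14 at 0. Dendritic cell markers summed to 12.3, 26.7 and 69.3 FPKM, with 4, 4 and 3 of 10 at 0. Of 9 natural killer cell markers, 9 were listed at 0 with LPS and 5 with apoptotic cells.

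**Figure D5:**
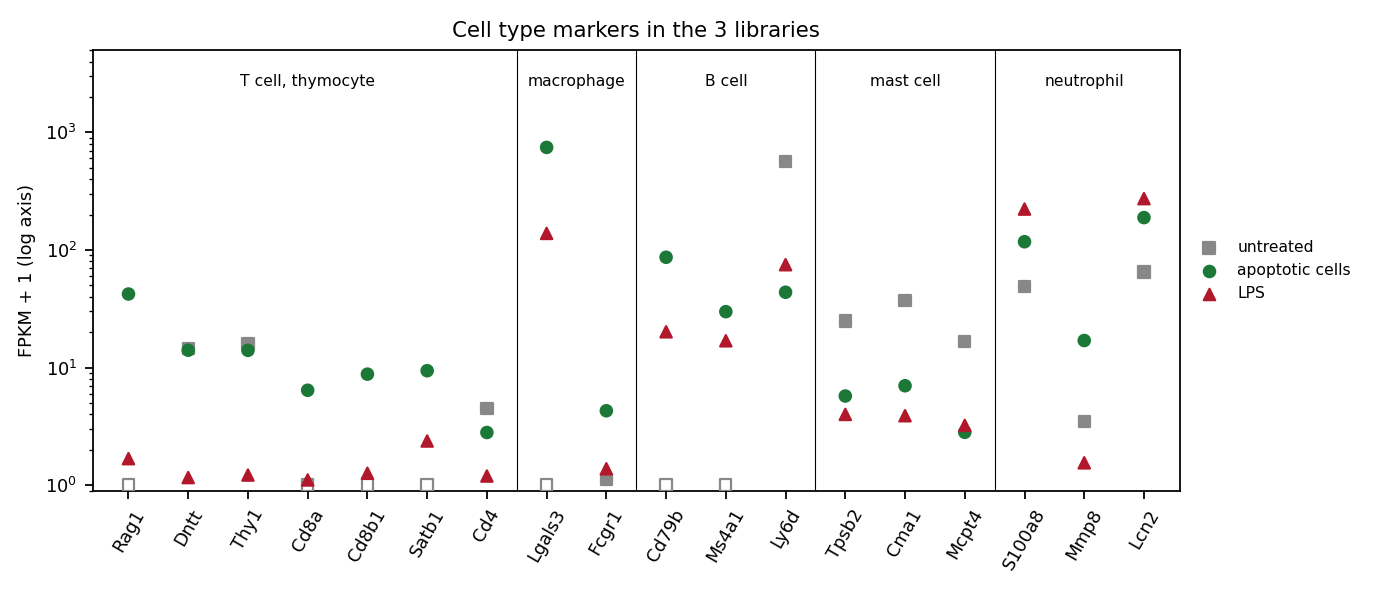
Cell type markers, with FPKM + 1 on a log axis in the untreated (grey square), apoptotic-cell (green circle) and LPS (red triangle) library; hollow squares are values listed at 0. All 7 T cell and thymocyte markers with a ratio have the red triangle lowest among values above 0; for the B cell, mast cell and neutrophil panels 3 markers each are drawn, and for macrophages 2, chosen after their values were seen.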

How the data were processed

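RNA from 3 libraries of mouse peritoneal macrophages was compared, 1 per condition, grouped by the sample labels. The deposited tables hold 1 value per gene symbol, taken as FPKM made by the authors with Cufflinks 2.2.1, after cutadapt 1.14 and TopHat2 2.1.0, on mm10, per the submitters' processing notes, which also name Cuffdiff. The unit is not stated, but the smallest steps scale with transcript length as FPKM does. Neither options nor annotation nor strandedness is given in the sources used here, so reads of overlapping genes and of gene families with near copies, such as ribosomal proteins, may be shared out wrongly.

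Ratios were log2((FPKM + 1)/(FPKM + 1)) over 4599 genes, with Python 3.11.15, numpy 2.4.6, pandas 2.3.3, scipy 1.17.1 and matplotlib 3.10.9. A difference of at least 2-fold is a description of the libraries. Depth came from the smallest steps of the values, 0.3 FPKM per fragment on 1 kb untreated, 0.31 with apoptotic cells and 0.315 with LPS, after 250 bases are taken off the length (GENCODE M21, 98.0% of the symbols). The scripts were tested on simulated data. Coordinates and promoters come from RefSeq (GRCm38.p6). Promoters matched 3255 of the 4599 genes (70.8%), and 16 motifs were searched.

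Named genes are the 15 largest ratios in each direction without small RNAs and uncharacterised models, the 2 highest and 2 lowest of each list, genes tied to the question of the study, and the most abundant genes listed at 0. Other list members past 2-fold, and those named for their role or drawn as examples, were chosen after their values were seen. The members, the 36 pathway lists and the 11 marker lists were chosen with earlier results of these data known. Of 1142 list entries 223 were not analysed here, and some items that the rule names are not reported here. Alternatives were other pseudocounts, filters, scalings and fold thresholds, each listed 0 used as a value, and genes above 0 in all 3 libraries.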

Additional observations from a re-analysis of the deposited data

How the results depend on the processing

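The counts of genes higher and lower with apoptotic cells were 722 and 255, around a median log2 ratio of 0.32. With a pseudocount of 5 FPKM they were 278 and 155 (median 0.19), and with a mean of at least 5 FPKM 398 and 163 (0.29). Median-of-ratios scaling gave 419 and 443 (-0.013), upper-quartile scaling 458 and 391 (0.052), and subtraction of the median 412 and 419 (0). With each listed 0 used as a value they were 1741 and 1423 (0.29), and among genes above 0 in all 3 libraries 464 higher (0.35). A threshold of 1.5-fold gave 1537 and 496, and of 4-fold 148 and 90. The counts stayed within 1.5 times with a pseudocount of 0.1 (median 0.38), with no filter on the mean (0.26) and with libraries rescaled to a common sum (0.40).

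Of 35 list medians 14 changed sign in at least 1 setting. All but 1 of these were under 2-fold (at most 0.45 in size): the chemokine median was 0.067 when each listed 0 was used. Subtraction of the median turned 5, glycolysis, hypoxia, heat shock, matrix and mast cell, to negative values. Relative to the median of all genes, the cytokine, chemokine, interferon, NF-kB and stress response lists stayed below, and the engulfment, sterol, lysosome, fatty acid oxidation and complex I lists above, in 10 of 10 settings. The repair, arginine, hypoxia, glycolysis, receptor, cell cycle and small peritoneal macrophage lists kept their side in 9, the Toll-like receptor, coagulation and heat shock lists in 8, the cytosolic ribosomal proteins in 7, the matrix list in 6, and the B cell and mast cell lists in 5. Of 179 named ratios 13 changed sign, none of them past 2-fold (at most 0.37) and only under median-of-ratios scaling (13), upper-quartile scaling (11) or subtraction of the median (11). No paired analysis was possible because each condition has 1 library. Genes with few fragments limit the precision: 257 genes past 2-fold have a counting SE above 0.5.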
